A study of Homo sapiens with 6 samples.

Results

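The HOX genes are the homeobox transcription factor genes of the HOXA, HOXB, HOXC and HOXD clusters, and their RNA was followed here in a human osteosarcoma cell line carrying a light-controlled reporter. Members were all symbols made of HOX, the cluster letter and a number, each represented by its protein-coding RefSeq entry with the most reads on a primary chromosome. This gave 39 genes of 18613 genes with such an entry, of which 11 lie in HOXA, 10 in HOXB, 9 in HOXC and 9 in HOXD. In build hg38 the entries lie at chr7:27100354-27200106 for HOXA2 to HOXA13 and chr17:48529445-48728749 for HOXB, all on the minus strand, and at chr12:53938792-54056030 for HOXC and chr2:176092804-176190907 for HOXD, both on the plus strand. RNA sequencing had been done on U2OS 2-6-3 cells, a derivative of the U2OS osteosarcoma line with a reporter array stably integrated in its genome. Sample cells had received 3 plasmids, mCherry-MCP, CIBN-TetR and PHR-YFP-VP16. PHR binds CIBN under blue light and so carries the VP16 transcriptional activator to the tet operators of the array. Mock cells had received TetR-RFP and YFP with the same transfection reagent, and so express a fluorescent protein on the operator-binding protein but no activator. Untransfected cells had received neither plasmid nor reagent. Cells of all 3 groups came from the same line and were kept in white light overnight, so an effect of light could not be tested, and expression of the plasmids was transient, with the share of cells taking them up not given in the labels. Each group had 2 libraries, and the labels do not say that these came from separate cultures, so p-values measure the spread between these libraries only, which may be technical.

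HOX proteins bind DNA through the homeodomain and tell cells of the embryo where they lie along the head-to-tail axis and along the limb. Genes at one end of a cluster are used earlier and further forward, and those with higher paralogue numbers later and further back, an arrangement called collinearity. Genes with the same number in different clusters are paralogues and often act together. Adult mesenchymal cells, bone and its tumours keep a positional pattern of HOX expression, and Polycomb and trithorax group complexes are known for keeping HOX genes off or on. HOX proteins reach their target sites together with cofactors of the TALE homeodomain class, the PBX, MEIS and PKNOX proteins. Below, paralogues 1 to 3 are called anterior, 4 to 8 central and 9 to 13 posterior.

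The solved libraries held 50105854 and 9579278 reads in sample cells, 54177551 and 44594507 in mock cells, and 53596406 and 51146190 in untransfected cells. Within a group the deeper library is called a and the shallower b, since the replicate numbers in the labels could not be tied to them. Values are normalized read counts, that is, reads of an entry divided by the size factor of the library, which brings libraries to a common depth. At that scale 1 read was worth 4.12 in sample library b and 0.65 to 0.927 in the other libraries, so values of sample library b carry the largest counting error. The line was labelled only by its name. Of 10 osteoblast-lineage markers 9 had reads and IBSP had none, SP7 had 1 read in all, and VIM, the mesenchymal intermediate filament gene, stood between 37686 and 50654 in the libraries. Of 6 blood markers 5 had reads in all libraries together, CD68 396, HBB 176, PTPRC 55 and HBA1 47 reads, and CD3E had 0. All 6 epithelial markers had reads, and KRT5 and KRT14 stood between 316 and 389 normalized read counts in untransfected cells.

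HOX expression in these cells was spread over all clusters and concentrated in a few genes. Of the 39 genes, 19 had a mean of at least 50 normalized read counts over the 6 libraries, 5 had a mean of at least 10 and under 50, and 15 a mean under 10. HOXB1 had no read in any library, and the other 14 of these low genes had 1 to 60 reads in all. They were mostly anterior and central genes of the clusters (HOXA2, HOXA3, HOXA4, HOXA6, HOXB2, HOXB4, HOXB5, HOXB8, HOXD1, HOXD3 and HOXD4) with HOXC12, HOXD12 and HOXD13 at the posterior end. Their means ran up to 7.25, and none of them was called in any comparison of the authors' deposited table. Among them, chosen after its values were seen, HOXA6 had 3.13 and 4.12 normalized read counts in sample cells, 4.25 and 2.78 in mock cells and 14.3 and 12.1 in untransfected cells, where each transfected library rests on 1 to 6 reads. Levels were compared between genes after division by transcript length, which was found for all 39. It was the median length of the GENCODE 29 transcripts linked to an entry, not that of the counted entry. In HOXA13, HOXB1, HOXB4, HOXC12 and HOXD12 it exceeds the genomic span of the entry, so their levels per kilobase are understated. Ranks and shares per kilobase are thus approximate. In untransfected cells HOXB7, a gene known for its overexpression in several tumours, was highest at 461 normalized read counts per kilobase and ranked at percentile 78.8 of 18257 genes with a length. HOXD8 followed with 244 per kilobase, and its libraries did not overlap with those of HOXB7 or of HOXC9. HOXC9 at 171 and HOXB9 at 160 per kilobase overlapped each other and stood at percentiles 61.7 and 60.6. Then came HOXC13 at 114 and HOXB13 at 111 per kilobase, which overlapped, and HOXA11, HOXD11, HOXA10 and HOXA9 between 87.7 and 96.3 per kilobase. In the same untransfected cells the remaining genes with a mean of at least 50 in all libraries lay between 15.7 per kilobase for HOXC8 and 54.5 for HOXC10.

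**Figure D1:**
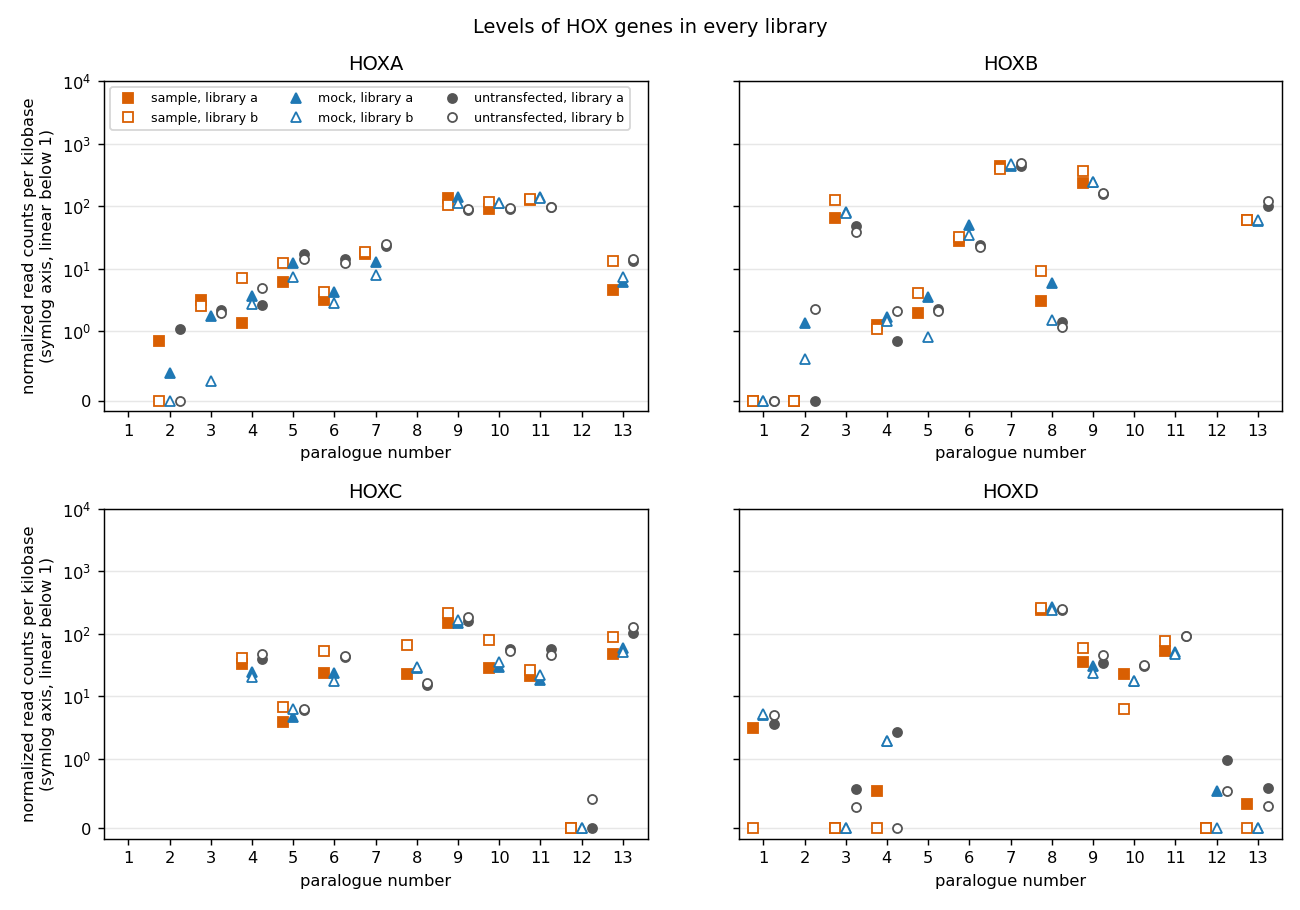
Normalized read counts per kilobase of transcript (vertical symlog axis, linear below 1) against paralogue number, 1 panel per cluster. Each symbol is 1 library, filled for library a and open for library b, with sample cells left, mock cells centre and untransfected cells right. HOXB7 and HOXD8 are the highest genes of the untransfected libraries, and the genes with a mean under 10 lie at numbers up to 8 in HOXA and HOXB, at 12 in HOXC and towards both ends of HOXD.

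The makeup of the HOX transcripts differed somewhat between the groups. Of all HOX reads per kilobase, HOXC genes made up 16.8% and 23.7% in sample cells, 16.3% and 17.2% in mock cells and 23.4% and 23.8% in untransfected cells. Sample library a lay with the mock libraries and sample library b with the untransfected ones. HOXB genes made up 42.4% and 40.6% in sample cells, 42.1% and 44.4% in mock cells and 37.6% and 38.4% in untransfected cells, so that both transfected groups were above the untransfected range. Of the same per-kilobase signal, posterior genes held 51.1% and 55.2% in sample cells, 50.5% and 51.1% in mock cells and 52.8% in both untransfected libraries, and the sample libraries lay on either side of the untransfected ones. Summed over all 39 genes, normalized read counts were 4354 ± 749 in sample cells, 4004 ± 90.8 in mock cells and 4162 ± 214 in untransfected cells (SD, n = 2 each), which overlap. In such bulk libraries, fewer cells with a transcript and less of it per cell cannot be told apart.

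The comparison of mock with untransfected cells asks what transfection and the plasmid proteins without an activator do to the cells. Of 8 tested HOXC genes 5 were lower and 0 higher, and the paralogues HOXA13, HOXB13 and HOXC13, at the posterior ends of their clusters, were lower in all 3 cases tested. HOXB genes went mostly the other way, with 3 higher (HOXB3, HOXB6 and HOXB9) and 1 lower of 8 tested. In HOXA 2 were higher and 2 lower of 10, and in HOXD 1 was lower of 5. In all, 14 of 31 tested HOX genes, 5 up and 9 down, had an adjusted p under 0.05 in the authors' deposited table. This is 45.2% of those tested, against 55.8% of all 14221 genes tested (30.3% higher and 25.4% lower), so change as such was not more frequent among HOX genes. At a mean of 50 or more the shares were 63.2% of 19 HOX genes and 63.1% of all genes. The median log2 fold change in the authors' deposited table was -0.11 over the tested HOX genes and 0.006 over all genes. By cluster it was -0.27 in HOXA, 0.34 in HOXB, -0.76 in HOXC and -0.49 in HOXD, again from the authors' deposited table. Among posterior genes 3 were higher and 6 lower of 13 tested, among central genes 1 and 3 of 14, and among anterior genes 1 and 0 of 4. With library sizes from total counts the median log2 fold change of all genes moved by -0.160, with upper-quartile sizes by -0.108. With total counts limma-voom on the solved counts called 3 HOX genes higher and 10 lower. With median-of-ratios sizes limma-voom called 15 HOX genes, 5 higher and 10 lower, against 61.6% of all genes (30.9% higher and 30.6% lower). These were 4008 genes higher and 3974 lower, against 2882 and 5154 with total counts.

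**Figure D2:**
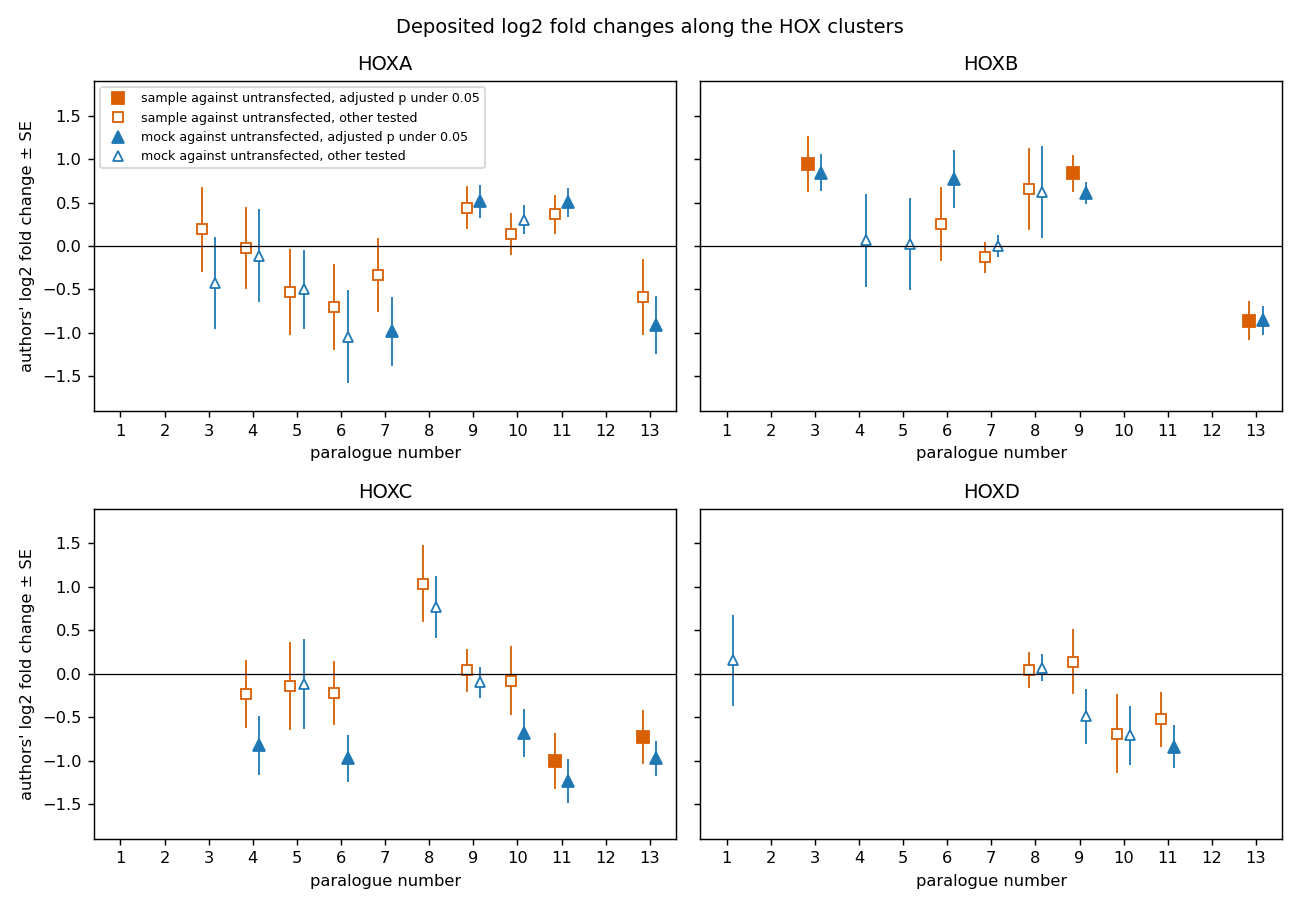
The authors' deposited log2 fold change with its standard error (vertical axis) against paralogue number, 1 panel per cluster, for sample against untransfected cells (squares, left) and mock against untransfected cells (triangles, right). Filled symbols had an adjusted p under 0.05. Both comparisons share the untransfected libraries. In HOXC 5 mock symbols are filled and all lie below 0, while the filled symbols of HOXB lie above 0 except those of HOXB13.

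In HOXA, genes a short distance apart went in opposite directions in mock cells. HOXA9, known as a driver of acute leukaemia together with MEIS1, had 275 and 218 normalized read counts in sample cells, 286 and 228 in mock cells and 177 and 185 in untransfected cells. Both transfected groups were above both untransfected libraries. Its log2 fold change in mock against untransfected cells was 0.51 (SE 0.19, adjusted p = 0.0151) in the authors' deposited table. HOXA11, which in mice patterns the forearm and kidney with HOXD11, had 283 and 296 in sample cells, 318 and 308 in mock cells and 218 and 224 in untransfected cells. Every transfected library was above the untransfected ones, and the authors' deposited table gives 0.51 (SE 0.17, adjusted p = 0.00561) for mock against untransfected cells on the log2 scale. HOXA7 had 35.2 and 37.1 in sample cells, 26.2 and 15.8 in mock cells and 46.1 and 50.6 in untransfected cells. Its untransfected libraries were the highest and its mock libraries the lowest, with a log2 fold change of -0.98 (SE 0.40, adjusted p = 0.0273) for mock cells in the authors' deposited table. HOXA13, a gene of the hand, foot and genital tract, had 22.7 and 65.9 in sample cells, 30.5 and 37.1 in mock cells and 65.6 and 72.7 in untransfected cells. The mock libraries lay below the untransfected ones with a log2 fold change of -0.91 (SE 0.34, adjusted p = 0.0156) in the authors' deposited table, whereas sample library b lay between the untransfected libraries. HOXA7 overlaps the antisense gene HOXA-AS3, and whether counting used the strand is not given in the sources used here. In limma-voom fits without 1 library, HOXA11 was called in all 6. Fits without a sample library remove no library of this comparison, so here and below only the other fits probe a mock call. HOXA7 was not called without mock library b (adjusted p = 0.0537), HOXA9 without mock library a or either untransfected library (up to 0.167) or with total-count sizes (0.0987) or upper-quartile sizes (0.0507), and HOXA13 without any 1 of the mock or untransfected libraries (up to 0.142).

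The promoters of these 4 genes are shown because the genes lie in one cluster and differed in direction. They are the RefSeq windows of build GRCh38.p14, 250 bases before to 50 bases after the start, on the minus strand of chromosome 7, printed 5′ to 3′ with motif matches in capitals. HOXA7 lies at chr7:27156626-27156925, HOXA9 at chr7:27165488-27165787, HOXA11 at chr7:27185183-27185482 and HOXA13 at chr7:27200042-27200341.
HOXA7: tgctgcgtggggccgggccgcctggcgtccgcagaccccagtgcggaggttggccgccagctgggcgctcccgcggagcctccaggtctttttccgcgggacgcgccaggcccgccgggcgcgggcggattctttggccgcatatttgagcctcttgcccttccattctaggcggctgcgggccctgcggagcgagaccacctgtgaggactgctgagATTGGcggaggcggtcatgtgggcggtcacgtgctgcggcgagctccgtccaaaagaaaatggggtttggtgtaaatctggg
HOXA9: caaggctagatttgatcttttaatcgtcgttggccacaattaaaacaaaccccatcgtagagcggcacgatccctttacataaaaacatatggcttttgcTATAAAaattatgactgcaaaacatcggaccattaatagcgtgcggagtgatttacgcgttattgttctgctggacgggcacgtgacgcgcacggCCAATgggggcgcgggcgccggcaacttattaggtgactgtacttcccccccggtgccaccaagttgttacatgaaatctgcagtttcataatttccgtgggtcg
HOXA11: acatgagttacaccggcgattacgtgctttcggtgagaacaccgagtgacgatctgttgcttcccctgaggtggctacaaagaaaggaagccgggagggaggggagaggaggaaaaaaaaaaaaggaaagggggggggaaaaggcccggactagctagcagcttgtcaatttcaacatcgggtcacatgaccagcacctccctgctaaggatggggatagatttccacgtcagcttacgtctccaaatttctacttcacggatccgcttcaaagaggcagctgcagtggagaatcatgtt
HOXA13: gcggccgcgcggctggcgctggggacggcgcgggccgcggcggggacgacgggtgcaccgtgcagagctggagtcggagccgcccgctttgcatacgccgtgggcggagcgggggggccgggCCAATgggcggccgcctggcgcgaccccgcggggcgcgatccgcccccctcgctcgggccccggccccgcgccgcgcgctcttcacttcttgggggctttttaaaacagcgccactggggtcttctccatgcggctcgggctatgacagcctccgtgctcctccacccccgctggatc
The windows of the lower genes HOXA7 and HOXA13 held 68% and 76.3% G and C with 31 and 44 CpG dinucleotides. Those of the higher genes HOXA9 and HOXA11 held 48% and 51.3% with 22 and 13, and the medians of 34796 distinct windows were 58.7% and 14. Both strands were searched for 5 motifs. TATAAA, the letters of the TATA box, was found in the HOXA9 window alone of the 4, and 11.6% of all windows hold it. The match begins at base 101 of the window, far before the start, so it does not show a working TATA box. CCAAT, the site of the factor NF-Y, matched in HOXA7 (as its reverse complement), HOXA9 and HOXA13, against 34.6% of all windows, and no match overlapped another. Not found in any of the 4 were the homeodomain core TAATTA, which 4.86% of all windows hold, the composite site of HOX and PBX proteins TGATTNAT (2.82%) and the site of the factor AP-1, TGANTCA (7.73%). RefSeq windows were given for 20 of the 39 genes, and these matches describe letters only.

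The other HOXA genes gave no call. HOXA10, a regulator of the uterus and of blood formation, had 232 and 292 in sample cells, 286 and 281 in mock cells and 227 and 236 in untransfected cells, with 0.30 (SE 0.17, adjusted p = 0.12) on the log2 scale for mock cells in the authors' deposited table. The mock libraries were above the untransfected ones, and the sample libraries lay on either side of the higher untransfected library. HOXA5, a lung development gene, had 10.2 and 20.6 in sample cells, 20.6 and 12.1 in mock cells and 28.6 and 23.5 in untransfected cells. The 2 mock libraries were below the untransfected ones, with -0.50 (SE 0.45, adjusted p = 0.378) in the authors' deposited table.

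In HOXB the called genes up to HOXB9 were higher in mock cells, and HOXB13, which lies apart from the others beyond a gap in the cluster, was lower. HOXB3, a hindbrain and pharyngeal arch gene, had 167 and 325 normalized read counts in sample cells, 211 and 201 in mock cells and 125 and 101 in untransfected cells. All transfected libraries exceeded the untransfected ones, sample library b most of all, and for mock cells the log2 fold change was 0.85 (SE 0.21, adjusted p = 0.000235) in the authors' deposited table. HOXB6 had 45.4 and 53.5 in sample cells, 82.3 and 56.6 in mock cells and 40.3 and 37.1 in untransfected cells. The mock libraries were highest, with 0.77 (SE 0.34, adjusted p = 0.0423) on the log2 scale in the authors' deposited table. HOXB9, a thoracic patterning gene in mice, had 611 and 943 in sample cells, 618 and 636 in mock cells and 403 and 424 in untransfected cells. No transfected library came down to the untransfected level, with 0.61 (SE 0.13, adjusted p = 7.56e-06) for mock cells on the log2 scale in the authors' deposited table. HOXB7, the highest HOX gene per kilobase, had 606 and 535 in sample cells, 599.9 and 653 in mock cells and 590.0 and 674 in untransfected cells. Its groups overlapped, and the log2 fold change for mock cells was 0.0048 (SE 0.13, adjusted p = 0.979) in the authors' deposited table. HOXB13, a gene of the prostate and, in mice, of the tail, had 205 and 206 in sample cells, 204 and 211 in mock cells and 354 and 416 in untransfected cells. The 4 transfected libraries lay within 10 normalized read counts of each other and below both untransfected ones, with -0.85 (SE 0.17, adjusted p = 1.48e-06) for mock cells on the log2 scale in the authors' deposited table. HOXB3 and HOXB6 overlap the antisense genes HOXB-AS1 and HOXB-AS3. In limma-voom HOXB13 was called in all 6 fits without 1 library, whereas HOXB3 was lost without mock library a or untransfected library b (up to adjusted p = 0.0762) and HOXB9 without untransfected library a (0.0609). HOXB6 was lost without mock library a or either untransfected library (up to 0.162) and with total-count sizes (0.0528).

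HOXC held the greatest number of lower genes of the 4 clusters, and 3 of them were its posterior genes HOXC10, HOXC11 and HOXC13. HOXC11 had 69.6 and 86.5 normalized read counts in sample cells, 60.3 and 72.3 in mock cells and 183 and 149 in untransfected cells. Every transfected library was below the untransfected ones, and the log2 fold change of -1.24 (SE 0.25, adjusted p = 3.58e-06) for mock cells was the lowest of the called HOX genes in the authors' deposited table. HOXC13, a hair and nail gene, had 113 and 218 in sample cells, 143 and 126 in mock cells and 246 and 306 in untransfected cells. Both transfected groups were below the untransfected one, sample library b the least so, with -0.98 (SE 0.20, adjusted p = 4.3e-06) for mock cells in the authors' deposited table. HOXC10, a hindlimb-level gene in mice, had 54.8 and 156 in sample cells, 56.7 and 68.6 in mock cells and 109 and 102 in untransfected cells. The mock libraries were below the untransfected ones, with -0.69 (SE 0.28, adjusted p = 0.0273) in the authors' deposited table, and sample library b was above them. HOXC6 had 68.8 and 156 in sample cells, 69.5 and 51 in mock cells and 125 and 128 in untransfected cells. Again the mock libraries were below and sample library b above the untransfected ones. Its log2 fold change for mock cells was -0.97 (SE 0.27, adjusted p = 0.00094) in the authors' deposited table. HOXC4 had 50.1 and 61.8 in sample cells, 36.9 and 31.5 in mock cells and 59.1 and 73.4 in untransfected cells. The mock libraries were lowest, with -0.82 (SE 0.34, adjusted p = 0.032) in the authors' deposited table. Entries of HOXC4, HOXC5 and HOXC6 overlap on the same strand, so reads could be divided between them in more than one way. A second protein-coding entry of HOXC4 had -0.64 (adjusted p = 0.145) for mock cells in the authors' deposited table. The HOXC4 call, and its place in the HOXC count, thus depends on the entry used. The other protein-coding entry of HOXC6 was also lower, with -0.90 (adjusted p = 0.00376) in the authors' deposited table.

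HOXC8, a thoracic and brachial gene, was the 1 tested HOXC gene with a fold change above 0 in mock cells. It had 43.8 and 124 in sample cells, 53.2 and 54.7 in mock cells and 28.6 and 30.6 in untransfected cells. All transfected libraries were above the untransfected ones, yet its log2 fold change of 0.77 (SE 0.36, adjusted p = 0.0594) for mock cells missed the threshold in the authors' deposited table. HOXC9 had 230.0 and 321 in sample cells, 229.7 and 249 in mock cells and 242 and 278 in untransfected cells, where the mock range overlapped the untransfected one, with -0.10 (SE 0.18, adjusted p = 0.684) in the authors' deposited table. HOXC5, with a mean of 10.2 over the libraries, had -0.12 (SE 0.52, adjusted p = 0.876) there in the authors' deposited table. In limma-voom fits without 1 library HOXC11 and HOXC13 were called in all 6, which includes every fit without a mock or untransfected library. HOXC6 was lost without mock library b (adjusted p = 0.0667), HOXC4 without mock library b or untransfected library b (up to 0.0625), and HOXC10 without any 1 of the mock or untransfected libraries (up to 0.258) or with the entries of a gene summed (0.0569).

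In HOXD, HOXD11 was lower in mock cells and the abundant HOXD8 was not called. HOXD11, which in mice shapes the forearm with HOXA11, had 80.6 and 115 normalized read counts in sample cells, 77.3 and 73.3 in mock cells and 142 and 141 in untransfected cells. No transfected library reached the untransfected ones, and the authors' deposited table gives -0.84 (SE 0.25, adjusted p = 0.00176) for mock cells on the log2 scale. HOXD10, a neighbour of HOXD11, had 44.6 and 12.4 in sample cells, 35.5 and 35.2 in mock cells and 61.1 and 63.4 in untransfected cells. All transfected libraries were below the untransfected ones, with -0.71 (SE 0.34, adjusted p = 0.0682) for mock cells in the authors' deposited table, which is no call. Limma-voom gave -0.83 (adjusted p = 0.038), a call that was lost without any 1 of the mock or untransfected libraries. HOXD8 had 309.8 and 334 in sample cells, 337 and 304 in mock cells and 303 and 315 in untransfected cells. HOXD9 had 65.7 and 111 in sample cells, 57.4 and 43.6 in mock cells and 63 and 86.9 in untransfected cells. Mock and untransfected libraries overlapped for HOXD8 and not for HOXD9, and neither was called, with log2 fold changes of 0.07 (SE 0.16, adjusted p = 0.746) for HOXD8 and -0.49 (SE 0.32, adjusted p = 0.198) for HOXD9 in the authors' deposited table. HOXD11 was called in all 6 limma-voom fits without 1 library. Over the 19 HOX genes with a mean of at least 50, mock and untransfected libraries did not overlap for 16, with 8 above and 8 below. This is 84.2%, against 84.7% of all genes at that level (46.3% above and 38.5% below).

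**Figure D3:**
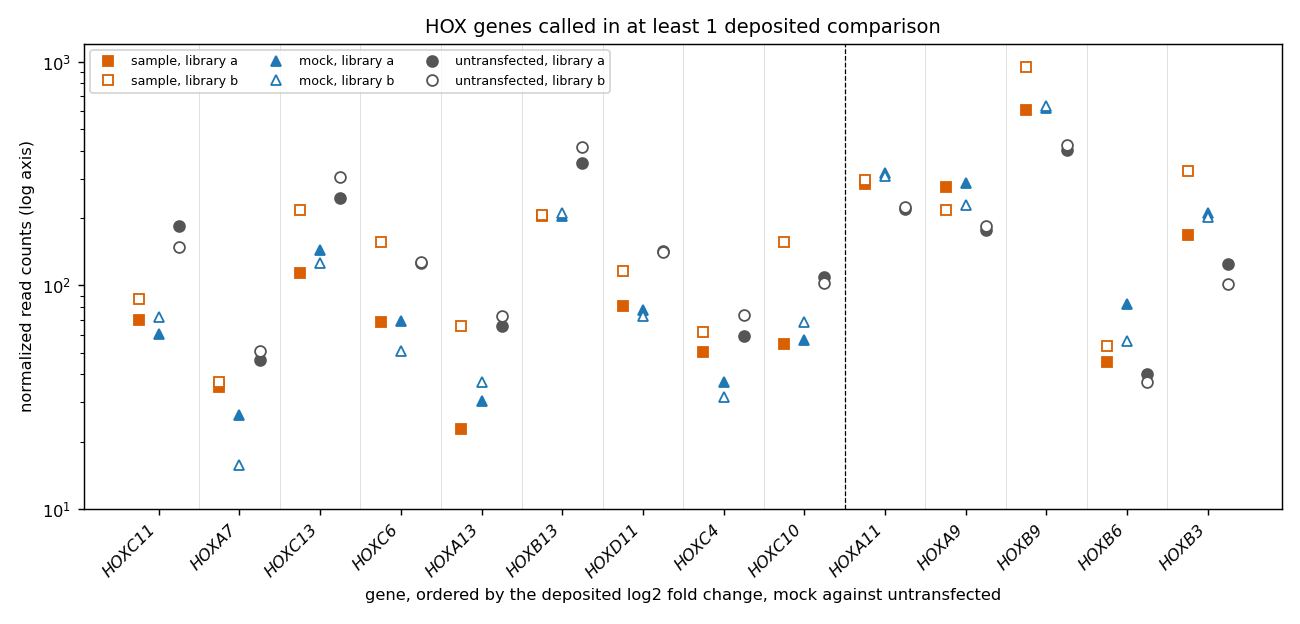
Normalized read counts (vertical log axis) of the 14 HOX genes called in at least 1 deposited comparison, ordered by the deposited log2 fold change of mock against untransfected cells. Each symbol is 1 library, filled for library a and open for library b, with sample cells left, mock cells centre and untransfected cells right, and the dashed line parts the 9 lower from the 5 higher genes. Sample library b lies above sample library a by a log2 ratio of 1.52 in HOXC10 and 1.18 in HOXC6, while the sample libraries of HOXB13 lie together.

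The comparison of sample with untransfected cells asks the same of the light-controlled plasmids. HOXB3 and HOXB9 were higher, and HOXB13, HOXC11 and HOXC13 were lower. Of 28 tested HOX genes 5 were called in the authors' deposited table, which is 17.9% against 40.5% of all 13383 genes tested (22.1% higher and 18.4% lower). For HOX genes with a mean of at least 50 it was 26.3% of 19 genes, against 44.6% of all genes at that level. The median log2 fold change of the tested HOX genes was -0.05 in the authors' deposited table and that of all genes 0.009. The untransfected libraries are the same as in the comparison with mock cells, so similar values in both comparisons are not independent. For HOXB9 the log2 fold change was 0.84 (SE 0.22, adjusted p = 0.000536) and for HOXB3 0.95 (SE 0.32, adjusted p = 0.0119) in the authors' deposited table. Among the lower genes it was -0.86 (SE 0.23, adjusted p = 0.000773) for HOXB13, -1.003 (SE 0.32, adjusted p = 0.00647) for HOXC11 and -0.73 (SE 0.31, adjusted p = 0.0486) for HOXC13 in the authors' deposited table. HOXC8 missed the threshold with 1.04 (SE 0.44, adjusted p = 0.051) in the authors' deposited table. No HOXA gene was called, and HOXA9 and HOXA11 had 0.44 (SE 0.25, adjusted p = 0.163) and 0.36 (SE 0.23, adjusted p = 0.209) in the authors' deposited table. Nor did HOXC6, with -0.22 (SE 0.36, adjusted p = 0.689), or HOXC10, with -0.08 (SE 0.40, adjusted p = 0.905), pass in the authors' deposited table.

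Calls in sample cells depended on which of their 2 libraries was used. Limma-voom on all 6 solved libraries called 9 of 24 HOX genes, 4 higher (HOXA9, HOXA11, HOXB3 and HOXB9) and 5 lower (HOXA13, HOXB13, HOXC11, HOXC13 and HOXD11), against 53.6% of all genes (27% higher and 26.6% lower). Without sample library a 5 HOX genes were called, 3 higher and 2 lower, against 47.7% of all genes. Of the 9 calls 3 were kept there (HOXB3, HOXB9 and HOXB13) and 6 were lost, those of HOXA9, HOXA11, HOXA13, HOXC11, HOXC13 and HOXD11. In that fit, which leaves sample library b alone for its group, HOXC13 stood at -0.33, HOXC11 at -0.92 and HOXA13 at -0.04 on the log2 scale. HOXC8 gained a call there at 2.05. HOXD10 gained one as lower, which rests on 3 reads in sample library b. Without sample library b 12 HOX genes were called, 4 higher and 8 lower, against 57.8% of all genes. All 9 calls were kept in that fit, and HOXA5, HOXC6 at -0.88 (adjusted p = 0.00502) and HOXC10 at -0.95 (adjusted p = 0.0047) were added. HOXB9 and HOXB13 were called in all 6 fits without 1 library, of which those without a mock library remove none of the libraries compared. HOXB3 was not called without untransfected library a (adjusted p = 0.0579) or b (0.141), nor with total-count sizes (0.0615), where 1 HOX gene was called higher and 6 lower and the median log2 fold change of all genes moved by -0.128. With upper-quartile sizes 2 were called higher and 5 lower. Sample and untransfected libraries did not overlap for 11 of the 19 HOX genes with a mean of at least 50, with 7 above and 4 below, against 77% of all genes at that level (41.5% above and 35.5% below).

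The comparison of sample with mock cells sets the light-controlled activator against a transfection without it. No HOX gene of 27 tested was called in the authors' deposited table, where 0.076% of all 13158 genes tested were called, and 0 of the 27 had an unadjusted p under 0.05. Deposited log2 fold changes of the 27 ran from -0.10 to 0.17, but these are shrunk toward 0 in that table, so they do not give the size of a difference. Limma-voom called 0 of 24 HOX genes and 0% of all genes, with 0 HOX genes at an unadjusted p under 0.05 and fold changes from -0.55 to 0.78 on the log2 scale. Its 95% intervals, which are not adjusted for the number of genes, had a median half-width of 0.573 log2 units. Changes smaller than that were mostly not detectable here, and larger ones could be missed too. HOXA7 at 0.78 had an adjusted p of 0.952 in limma-voom. For HOXB7 the interval was -0.36 to 0.19, for HOXB13 -0.37 to 0.35, for HOXA11 -0.41 to 0.15 and for HOXD8 -0.31 to 0.26. It was wider for HOXA7 at -0.004 to 1.56, HOXC8 at -0.76 to 0.82 and HOXC10 at -0.64 to 0.94. Of the 19 genes with a mean of at least 50, sample and mock libraries did not overlap for 5, 3 above and 2 below, against 34.6% of all genes at that level (15.1% above and 19.5% below).

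The 2 sample libraries differed more from each other in HOX genes than the libraries of the other groups did. The log2 ratio of library b over a had a median of 0.33 and an SD of 0.552 over the 19 genes in sample cells, a median of -0.07 and an SD of 0.227 in mock cells, and a median of 0.06 and an SD of 0.198 in untransfected cells. Over all genes at that level the SD was 0.402 in sample cells, 0.193 in mock cells and 0.156 in untransfected cells. In sample cells 16 of the 19 ratios were above 0, which is 84.2%, against 47.7% of all genes at that level. In untransfected cells 14 were above 0 (73.7% against 55.9%), and in mock cells 7 (36.8% against 54.7%). A tilt to library b was thus not particular to sample cells. In sample cells the ratio was 1.52 for HOXC10, 1.495 for HOXC8 and 1.18 for HOXC6. It was above 1 there for no other of the 19 HOX genes, while 2.28% of all genes passed 1. In sample library b HOXC10 and HOXC6 had 38 reads and HOXC8 had 30. With fewer reads there, HOXB6 (13 reads) had a ratio of 0.24, HOXC4 (15) of 0.30 and HOXC11 (21) of 0.31. For HOXD11 (28) it was 0.52 and for HOXD9 (27) it was 0.76. HOXB13 (0.006) and HOXA11 (0.07) had nearly the same level in both sample libraries. Without sample library a, which leaves library b alone for its group, limma-voom called 4 HOX genes higher in sample than in mock cells: HOXC6 (1.38, adjusted p = 0.0139), HOXC10 (1.35, adjusted p = 0.0124), HOXC8 (1.21, adjusted p = 0.0309) and HOXB9 (0.59, adjusted p = 0.0142). In that fit 8.04% of all genes were called, and the lone library is assumed to vary like those of the other groups. Without sample library b no HOX gene was called. Library b was also the shallowest, and the part of depth in these ratios was not tested.

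**Figure D4:**
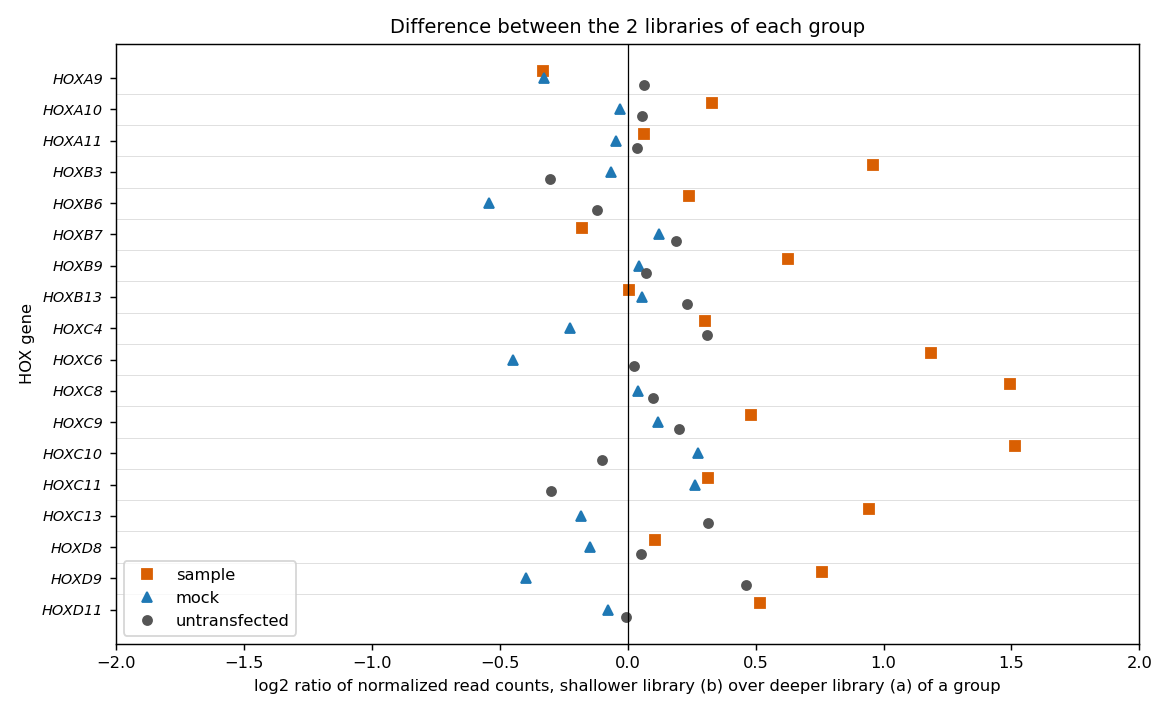
Log2 ratio of normalized read counts of the shallower over the deeper library of each group (horizontal axis) for 18 HOX genes with a mean of at least 50. Squares are sample cells, triangles mock cells and circles untransfected cells. The sample ratios lie above 0 for 16 of the genes drawn and above 1 for HOXC6, HOXC8 and HOXC10.

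Noncoding RNAs transcribed within the clusters were described from a list of 23, of which 21 were found and 15 had reads. In mock against untransfected cells 0 were higher and 2 lower of 9 tested in the authors' deposited table, where 26.3% of all genes with noncoding entries only were called, 12.9% as lower. HOTAIR, a long RNA transcribed opposite HOXC11 and known for its association with Polycomb complexes, and HOXC13-AS, opposite HOXC13, were both lower. Their means are under 50, and they were named after their values were seen. HOTAIR had 17.2 and 12.4 in sample cells, 15.6 and 21.3 in mock cells and 91.6 and 108 in untransfected cells. Every transfected library was far below the untransfected ones, with -2.15 (SE 0.34, adjusted p = 1.79e-09) for mock cells and -2.03 (SE 0.42, adjusted p = 9.92e-06) for sample cells in the authors' deposited table. HOXC13-AS had 22.7 and 4.12 in sample cells, 25.5 and 24.1 in mock cells and 70.2 and 74.1 in untransfected cells. Its value in sample library b is 1 read, and the authors' deposited table gives -1.34 (SE 0.35, adjusted p = 0.000348) for mock and -1.48 (SE 0.47, adjusted p = 0.00577) for sample cells. Both overlap on the opposite strand a HOXC gene that was lower too. The library kit keeps the strand, but whether counting used it is not given, so reads of such a pair cannot be told apart here. HAGLR, which starts beside HOXD1, had 51.6 and 132 in sample cells, 46.1 and 46.4 in mock cells and 38.3 and 38.5 in untransfected cells and was not called. In sample against untransfected cells HOTAIR and HOXC13-AS were the 2 lower, with 0 higher, of 6 tested, against 17.4% called and 8.63% called lower, and in sample against mock cells 0 of 6 were called, against 0%.

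Among genes just outside the clusters, CALCOCO2 was higher and HIBADH lower in both transfected groups. Of 10 tested 3 were higher and 2 lower in mock cells, and of 9 tested 1 was higher and 2 lower in sample cells, both against untransfected cells in the authors' deposited table. These are 50% and 33.3%, against 55.8% of all genes in mock and 40.5% in sample cells. CBX5, a heterochromatin protein gene beyond HOXC, fell by 0.73 (SE 0.076) and HIBADH, an enzyme gene beyond HOXA, fell by 0.43 (SE 0.10) on the log2 scale in mock cells in the authors' deposited table. CALCOCO2 beyond HOXB rose by 0.44 (SE 0.092) and ATP5MC3 beyond HOXD by 0.37 (SE 0.078) there in the authors' deposited table. EVX2 had no read.

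MEIS1, a cofactor of HOX proteins, was lower in both transfected groups. Of 10 tested TALE genes 1 was higher and 5 lower in mock cells, and 1 was higher and 4 lower in sample cells, each against untransfected cells in the authors' deposited table. These are 60% in mock and 50% in sample cells, against 55.8% and 40.5% of all genes, of which 25.4% and 18.4% were lower. MEIS1, which joins HOXA9 and PBX proteins on DNA, had 195 and 189 in sample cells, 193 and 174 in mock cells and 899 and 934 in untransfected cells. No transfected library came near the untransfected ones, with log2 fold changes of -2.26 (SE 0.14, adjusted p = 2.28e-60) for mock and -2.17 (SE 0.19, adjusted p = 1.74e-29) for sample cells in the authors' deposited table. MEIS3 had 1379 and 1511 in sample cells, 1239.5 and 1346 in mock cells and 2379 and 2475 in untransfected cells, with -0.89 (SE 0.09, adjusted p = 2.02e-22) for mock cells in the authors' deposited table. PBX3, with 349 and 412 in sample cells, 385 and 362 in mock cells and 414 and 381 in untransfected cells, overlapped between groups and was not called. TGIF2, a repressor of the class, went up, with 1279 and 1392 in sample cells, 1391 and 1363 in mock cells and 762 and 850.2 in untransfected cells and 0.78 (SE 0.10, adjusted p = 1.77e-13) for mock cells in the authors' deposited table. In sample against mock cells 0 of the 10 were called.

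**Figure D5:**
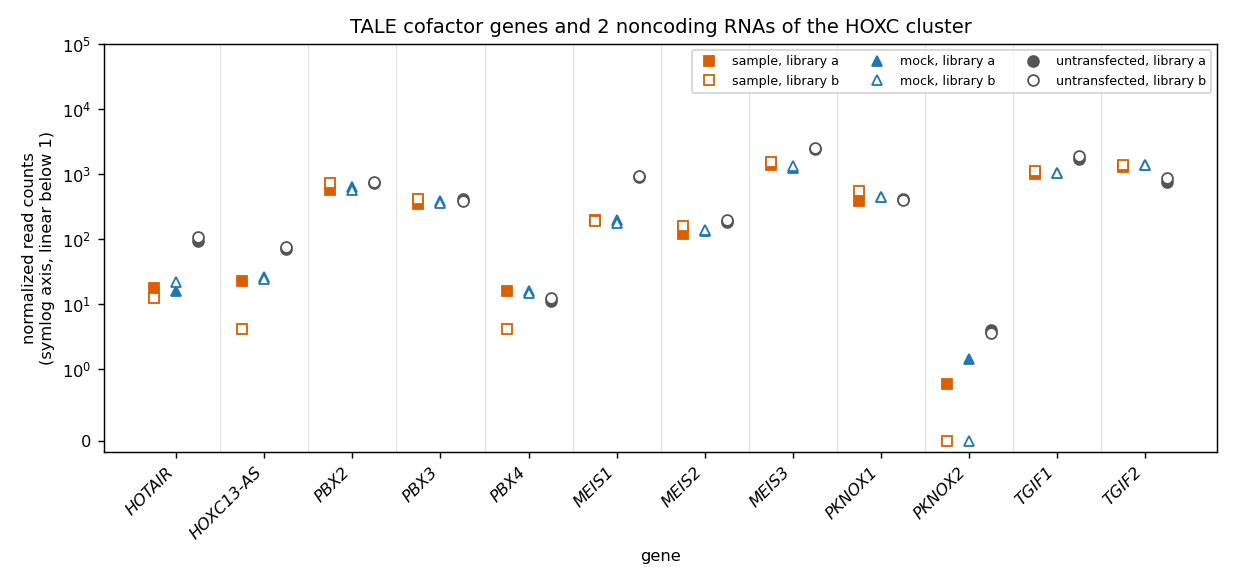
Normalized read counts (vertical symlog axis, linear below 1) of HOTAIR, HOXC13-AS and 10 TALE cofactor genes. Each symbol is 1 library, filled for library a and open for library b, with sample cells left, mock cells centre and untransfected cells right. MEIS1 is lower in all 4 transfected libraries than in the untransfected ones, and the PBX3 values overlap between the groups.

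Among regulators of HOX expression, PHC2 and KDM6B were higher and CBX8, RARG and GDF11 lower in both transfected groups. Of 30 Polycomb group genes, which keep HOX genes silent, 8 were higher and 10 lower in mock cells and 4 and 7 in sample cells, both against untransfected cells in the authors' deposited table. This is 60% called in mock and 36.7% in sample cells, near the 55.8% and 40.5% of all genes. PHC2, a subunit of the complex PRC1, had log2 fold changes of 1.25 in mock cells and 1.10 in sample cells in the authors' deposited table. CBX8 and CBX2 code for PRC1 subunits that bind methylated histone H3. The authors' deposited table gives -0.86 in mock and -0.77 in sample cells for CBX8, and -0.65 and -0.66 for CBX2. Of 18 trithorax group and elongation genes, which keep HOX genes active, 9 were higher and 5 lower in mock cells and 7 and 3 in sample cells in the authors' deposited table. This is 77.8% called in mock and 55.6% in sample cells, against the same 55.8% and 40.5% of all genes. Among all genes with a mean of at least 50, a level these genes reach, the shares were 63.1% and 44.6%. KDM6B, which removes the Polycomb mark, rose by 1.05 in mock and by 1.42 in sample cells in the authors' deposited table, with 138 and 445 in sample cells, 193 and 169.7 in mock cells and 84.5 and 86.2 in untransfected cells. DOT1L, a histone methyltransferase, stood at 0.71 in mock and 0.90 in sample cells, and PSIP1, which ties menin and KMT2A to chromatin, at -0.84 and -0.92, on a log2 scale in the authors' deposited table. Of 12 tested upstream regulators of HOX genes 2 were higher and 5 lower in mock cells and 0 and 4 in sample cells in the authors' deposited table. This is 58.3% called in mock and 33.3% in sample cells, near the shares of all genes. RARG, a retinoic acid receptor gene, stood at -2.35 in mock and -2.01 in sample cells, and GDF11, a trunk-to-tail signal, at -1.26 and -1.24, again on a log2 scale in the authors' deposited table. CDX2 rose by 0.76 (adjusted p = 0.00712) in mock cells in the authors' deposited table. In sample against mock cells 0 of these Polycomb, trithorax and upstream genes were called.

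Among markers of cell types, ALPL was higher and RUNX2 lower in both transfected groups. Of 8 tested osteoblast-lineage markers 3 were higher and 3 lower in mock cells and 2 and 2 in sample cells against untransfected cells in the authors' deposited table. This is 75% called in mock and 50% in sample cells, and for this and the marker counts that follow the shares of all genes are again 55.8% in mock and 40.5% in sample cells. ALPL had log2 fold changes of 3.62 in mock and 3.05 in sample cells, and RUNX2 of -2.49 and -1.76, in the authors' deposited table. The 3 mesenchymal markers were higher in mock cells, FN1 by 1.47 on a log2 scale in the authors' deposited table, and 1 of the 3 in sample cells. Of the 6 epithelial markers 5 were tested in mock cells, with 0 higher and 3 lower (KRT5, KRT14 and EPCAM). KRT5 had 27.4 and 24.7 in sample cells, 24.1 and 34.3 in mock cells and 316 and 389 in untransfected cells. Of 4 tested blood markers CD68 was higher in mock cells, and CD68 and HBB in sample cells, while PTPRC, the defining leukocyte gene, had 3.91 and 4.12 in sample cells, 6.38 and 5.56 in mock cells and 13 and 9.98 in untransfected cells. HBB had 103 and 61.8 in sample cells, 11.3 and 3.71 in mock cells and 1.95 and 4.28 in untransfected cells. It was also the 1 blood marker called higher in sample than in mock cells in the authors' deposited table. Of all 13158 genes tested there, 0.076% were called, with 9 lower and only HBB higher. What these HBB reads stand for was not tested. Neither of 2 tested endothelial markers was called in mock cells. Summed over its list, the normalized read count of epithelial markers was 236 and 185 in sample cells, 241 and 198 in mock cells and 910.3 and 1006 in untransfected cells, and that of blood markers 190.1 and 214 in sample cells, 97.9 and 123 in mock cells and 35.7 and 38.5 in untransfected cells. For endothelial markers the sum was 6.26 and 12.4 in sample cells, 8.51 and 5.56 in mock cells and 9.1 and 9.98 in untransfected cells. Osteoblast-lineage markers summed to 28638 and 37111 in sample cells, 27340.2 and 28332 in mock cells and 40572 and 41310.1 in untransfected cells. A few abundant markers carry most of that sum, while ALPL had 764 and 868 in mock and 57.2 and 68.4 in untransfected cells. The sum therefore does not give the direction of single markers. Mesenchymal markers summed to 60522 and 71925 in sample cells, 66581 and 68763 in mock cells and 47426 and 50378 in untransfected cells. The part of these markers in the HOX results was not tested.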

How the data were processed

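The 6 libraries of U2OS 2-6-3 cells, 2 per group, come from RNA isolated with NucleoSpin RNA Plus and a directional library kit, per the labels' protocols. The submitters' processing notes list STAR, Bowtie, DESeq2 and the build hg38. The sources used here give no version, annotation or strand setting for the counting. Deposited were 3 tables of 40029 entries, each of 4 libraries. Per the file headers they hold the authors' mean signal of normalized read counts, log2 fold change with its standard error, Wald score, p-value and adjusted p-value. Fold changes in the deposited tables are shrunk toward 0, as the values show.

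Whole reads per library were solved from the 3 means by lattice reduction, for 30527 of 30527 entries with reads, within a relative tolerance of 1e-14. A symbol was found for 39745 entries (99.3%) in a RefSeq gene table or else in GENCODE 29, whose transcripts gave lengths. Calls are the authors' own at an adjusted p under 0.05, over all entries. A limma-voom test (limma 3.58.1 in R 4.3.3) was also run on the solved counts, all 6 libraries in one fit, on genes with a mean of at least 10, with median-of-ratios sizes and Benjamini-Hochberg adjustment, after tests on simulated data. Python 3.11.15, numpy 2.4.6, pandas 2.3.3, sympy 1.14.0 and matplotlib 3.10.9 were used. Alternatives changed threshold, fold, test, library sizes, filter, entries and libraries. Members with a mean of at least 50 or a call are given by library and the rest by counts, except HOXA5, HOXA6 and HOXD10, which were added after their values were seen. From each other list up to 4 called genes with a mean of at least 50 were named per comparison, and other list genes named were likewise added. A few genes counted in these totals are not reported here by name. Members, lists and rules were chosen with earlier results of these data known.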

Additional observations from a re-analysis of the deposited data

How the results depend on the processing

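In mock against untransfected cells the 14 called HOX genes became 8 at an adjusted p under 0.01. Every limma-voom fit without a mock or untransfected library, which leaves 1 library in a compared group, called fewer than 14. More than 14 were called only without a sample library, which is not part of this comparison, or under some of the other settings. Other settings gave 12 to 17. In sample against untransfected cells the 5 called became 3 at an adjusted p under 0.01, 9 with limma-voom on the solved counts, 9 without a filter on low counts and 8 with the entries of a gene summed. Fits without 1 library gave 4 to 12, the lowest without untransfected library b and the highest without sample library b. In sample against mock cells the count was 0 under all settings but one, and 0 to 4 without 1 library, 4 without sample library a. For the named genes in mock against untransfected cells, 199 of 231 values kept their side of the threshold, 25 lost a call and 7 gained one. In sample against untransfected cells 197 kept their side, 5 lost a call and 29 gained one, and in sample against mock cells 227 kept it and 4 gained a call. Among the values kept without a call, the sign differed from the deposited one in 12 of 70 in mock against untransfected cells, in 27 of 147 in sample against untransfected cells and in 52 of 227 in sample against mock cells. No value with a call in either fit changed sign. The causes were not tested. No paired analysis was possible because the replicate numbers of the labels could not be tied to the solved libraries. Depth limits sample library b most, where 1 read is worth 4.12 normalized read counts.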
